A study of Homo sapiens with 12 samples.

Results

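Levels of 10 genes of the early transcriptional response were followed in 12 RNA-seq libraries of 2 human prostate cancer lines: the nuclear receptors NR4A1, NR4A2 and NR4A3, the zinc finger factors EGR1, EGR2 and EGR3, the immediate early response genes IER2, IER3 and IER5, and SRF. They were named as a family list out of the 58037 identifiers in the count table, and all 10 were found there. The list was selected with earlier results of these libraries in view, in particular the counts with and without doxycycline (DOX), so the values of these genes for DOX against vehicle are descriptions, and where a count of calls among them stands beside its background nothing is read from it.

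The lines were LNCaP-AI and DU-145, each carrying tet-MUC1shRNA, a DOX-inducible hairpin against the mucin gene MUC1. LNCaP-AI was selected from C4-2B cells, a descendant of LNCaP, by long culture without androgen. DU-145 is an established androgen-insensitive prostate cancer line. Each line gave 3 vehicle samples (0.1% DMSO) and 3 samples given DOX at 500 ng/ml over 7 days, and the sample labels give phenol red-free medium with charcoal-stripped serum for both lines, whereas the culture methods of the study name heat-inactivated serum for DU-145. The sample labels call the vehicle groups shCTL and the DOX groups shMUC1. The question was what changes in these cells when MUC1 is silenced. Each line is a single model with a single hairpin, and no library of DOX-treated control-hairpin cells was used, which means that DOX and the hairpin cannot be told apart. RNA was taken from triplicate cultures, and the study's methods describe repeats on distinct samples for its experiments in general. Whether the 3 replicates of a group were independent experiments is not said for the RNA-seq, and p-values measure only the spread between these samples.

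Immediate early genes are transcribed within minutes of a growth factor, stress or calcium signal from factors already present in the cell, and their transcripts are short-lived. SRF is one of those resident factors. Together with ternary complex factors such as ELK1, which are phosphorylated by ERK, or with the actin-regulated coactivators MRTFA and MRTFB, it binds the CArG box in front of EGR1 and many cytoskeletal genes. The NR4A genes are known targets of CREB, which binds the cyclic AMP response element, and encode orphan nuclear receptors that act without a known hormone. NAB1 and NAB2 are corepressors of EGR proteins. IER2, IER3 and IER5 encode small regulators induced by the same stimuli, IER3 with a role in survival signaling and IER5 with a role in the heat shock response.

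Total counts were 10423437 to 13544153 per library in DU-145 and 16569613 to 26961777 in LNCaP-AI, and 3 counts or fewer were treated as the floor of detection, which covers counting error only. MUC1 had 74, 60 and 59 counts in the vehicle and 3, 3 and 3 in the DOX samples of DU-145, and 36, 25 and 52 against 8, 6 and 3 in LNCaP-AI. The luminal markers KLK2, KLK3, FOLH1 and HOXB13 were at 0 in every DU-145 library and were detected in every LNCaP-AI library. Immune markers summed to at most 0.362 CPM (counts relative to the library total) in any library. Fibroblast markers in LNCaP-AI summed to 22.3 to 29.7 CPM with vehicle and 25.6 to 26.9 CPM with DOX. Endothelial markers summed there to 5.33 to 5.97 CPM with vehicle and 7.93 to 9.02 CPM with DOX. In DU-145 the fibroblast sum was at most 3.84 CPM and the endothelial sum at most 0.668 CPM. The 6 LNCaP-AI libraries did not part by treatment. Their first principal component (82.5% of the variance) held vehicle 1 with DOX 2 and DOX 3 at one end, and the remaining vehicle samples with DOX 1 at the other. No label names a batch that matches this, and a mixed culture or a mislabelled library was not tested as its source. MUC1 counts were lower in every DOX sample than in every vehicle sample of this line. The 6 markers listed for DU-145 summed to 136 to 158 CPM in vehicle 1, DOX 2 and DOX 3 and to 965 to 1195 CPM in vehicle 2, vehicle 3 and DOX 1, and keratin KRT5 was at 0.0482, 0 and 0 CPM against 45.2, 53.2 and 39.1 CPM. KRT5 was at 0 in the vehicle samples of DU-145 itself. Of the same list, VIM did not follow the division, with 29.1, 29.2 and 32.4 CPM in the vehicle and 53.5, 59.9 and 58.6 CPM in the DOX samples of LNCaP-AI. The members' values in LNCaP-AI are therefore given with this division.

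The promoters are shown for EGR1 and SRF, which hold the CArG box, and for NR4A3, which holds the cyclic AMP response element core TGACG. The 250 bases before the annotated start are from RefSeq (GRCh38.p14), 5′ to 3′ on the strand of the gene, and capitals mark each CArG box and each TGACG on either strand (CGTCA on the printed strand). The windows are chr5:138465229-138465478 for EGR1, chr6:43171019-43171268 for SRF and chr9:99821635-99821884 for NR4A3, all on the plus strand.
EGR1: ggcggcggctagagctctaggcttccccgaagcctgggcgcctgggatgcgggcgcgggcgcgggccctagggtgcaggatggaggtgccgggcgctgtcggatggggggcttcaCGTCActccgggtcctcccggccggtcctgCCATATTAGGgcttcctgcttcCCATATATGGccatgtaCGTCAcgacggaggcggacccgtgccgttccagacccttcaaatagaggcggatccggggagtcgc
SRF: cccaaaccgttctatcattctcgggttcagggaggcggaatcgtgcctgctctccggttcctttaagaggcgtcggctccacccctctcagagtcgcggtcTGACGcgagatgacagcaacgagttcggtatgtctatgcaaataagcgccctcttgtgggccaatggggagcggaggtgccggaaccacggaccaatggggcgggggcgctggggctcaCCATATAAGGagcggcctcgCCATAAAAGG
NR4A3: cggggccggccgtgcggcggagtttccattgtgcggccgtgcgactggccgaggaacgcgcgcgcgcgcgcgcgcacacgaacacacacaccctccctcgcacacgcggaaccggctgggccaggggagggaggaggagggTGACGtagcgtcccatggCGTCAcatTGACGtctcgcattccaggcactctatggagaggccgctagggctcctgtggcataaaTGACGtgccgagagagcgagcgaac
In EGR1 the CArG boxes began 105 and 83 bases before the start, and a TGACG match began 135 and 66 bases before it. In SRF the CArG boxes began 30 and 10 bases before the start, beside 1 TGACG match. NR4A3 held 4 TGACG matches, which began 109, 91, 83 and 25 bases before the start, and no CArG box. Among the 7 members with a window, EGR2 held 1 CArG box and 2 TGACG matches, IER2 held 1 TGACG match, and IER5 held neither. The closest NR4A1 window lay 13727 bases from the start of its main transcript and held neither, so the promoter of that transcript was not searched. A CArG box occurred in 1.16% and TGACG, which also lies within TGACGTCA, in 21.2% of all 35116 windows of this length. A match gives the letters only, not binding.

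In DU-145 the NR4A genes were higher and EGR1 was lower with DOX, while SRF, IER5 and the weakly expressed EGR2 and EGR3 overlapped between the groups. Levels are counts normalized to CPM with TMM factors over all 12 libraries. NR4A2, on chromosome 2 (156324437 to 156342348, GRCh38), stood at 5.56, 4.68 and 4.62 CPM in the vehicle samples and at 30.7, 30.8 and 30.1 CPM in the DOX samples. Its log2 fold change was 2.62 (SE 0.115), a 6.15-fold difference, and 0.235% of the genes tested had a larger absolute change. Vehicle and DOX were far apart, and the DOX samples lay within 1 CPM of each other.

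NR4A1 (chromosome 12, 52022832 to 52059507), also known as NUR77, had 5.47, 6.39 and 6.85 CPM with vehicle and 16.3, 18.5 and 15.1 CPM with DOX, a log2 fold change of 1.42 (SE 0.137). NR4A3 (chromosome 9, 99821855 to 99866891) had 15.4, 13.2 and 13.9 CPM with vehicle and 36.6, 29.0 and 29.0 CPM with DOX, a log2 fold change of 1.15 (SE 0.111). Neither gene overlapped between the groups. The 3 NR4A genes together gave 24.2 to 26.5 CPM with vehicle and 74.3 to 83.6 CPM with DOX. Their makeup differed too: NR4A3 held the most reads of the 3 with vehicle, whereas NR4A2 and NR4A3 were close with DOX, at 30.5 ± 0.397 and 31.6 ± 4.35 CPM (SD, n = 3). STX17-DT, a noncoding gene that overlaps NR4A3, had 0 to 5 counts with vehicle and 7 to 15 with DOX, against 138 to 189 and 332 to 401 counts for NR4A3, and how the counting treated strand is not given in the sources used here.

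EGR1 (chromosome 5, 138465479 to 138469303) went the other way. It had 56.0, 46.8 and 50.7 CPM with vehicle and 14.5, 15.6 and 14.1 CPM with DOX, a log2 fold change of -1.79 (SE 0.0891). The highest DOX sample was below the lowest vehicle sample by a wide margin. EGR2 (chromosome 10), a myelination and hindbrain regulator, had 2, 1 and 6 counts with vehicle and 2, 2 and 1 with DOX, and EGR3 (chromosome 8) had 0, 0 and 1 against 0, 0 and 0. Neither reached the minimum of 10 counts in 3 samples, so no fold change was computed. EGR1 thus made up nearly all EGR counts of this line in both groups, which summed to 46.8 to 56.2 CPM with vehicle and 14.2 to 15.8 CPM with DOX.

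Of the IER genes, IER2 (chromosome 19, 13150411 to 13154911) had 28.02, 22.2 and 22.02 CPM with vehicle and 32.02, 30.3 and 29.7 CPM with DOX, a log2 fold change of 0.35 (SE 0.0955). The groups did not overlap, but the highest vehicle sample came within 2 CPM of the lowest DOX sample. IER3 (chromosome 6, 30743199 to 30744548) was near the limit of counting, with 6, 5 and 14 counts with vehicle and 13, 19 and 18 with DOX. Its fitted log2 fold change of 0.97 (SE 0.382) was 0.71 without vehicle 1 and 1.51 without vehicle 3, and it passed the count minimum only through the DOX samples and vehicle 3. IER5 (chromosome 1, 181088700 to 181092900) had 33.7, 33.6 and 35.4 CPM with vehicle and 38.1, 38.5 and 34.4 CPM with DOX, a log2 fold change of 0.11 (SE 0.0826) with overlapping groups. SRF (chromosome 6, 43171269 to 43181506) had 101, 88.6 and 88.1 CPM with vehicle and 96.4, 102 and 84.8 CPM with DOX. Its log2 fold change was 0.03 (SE 0.0771), and 94% of the genes tested had a larger absolute change.

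**Figure D1:**
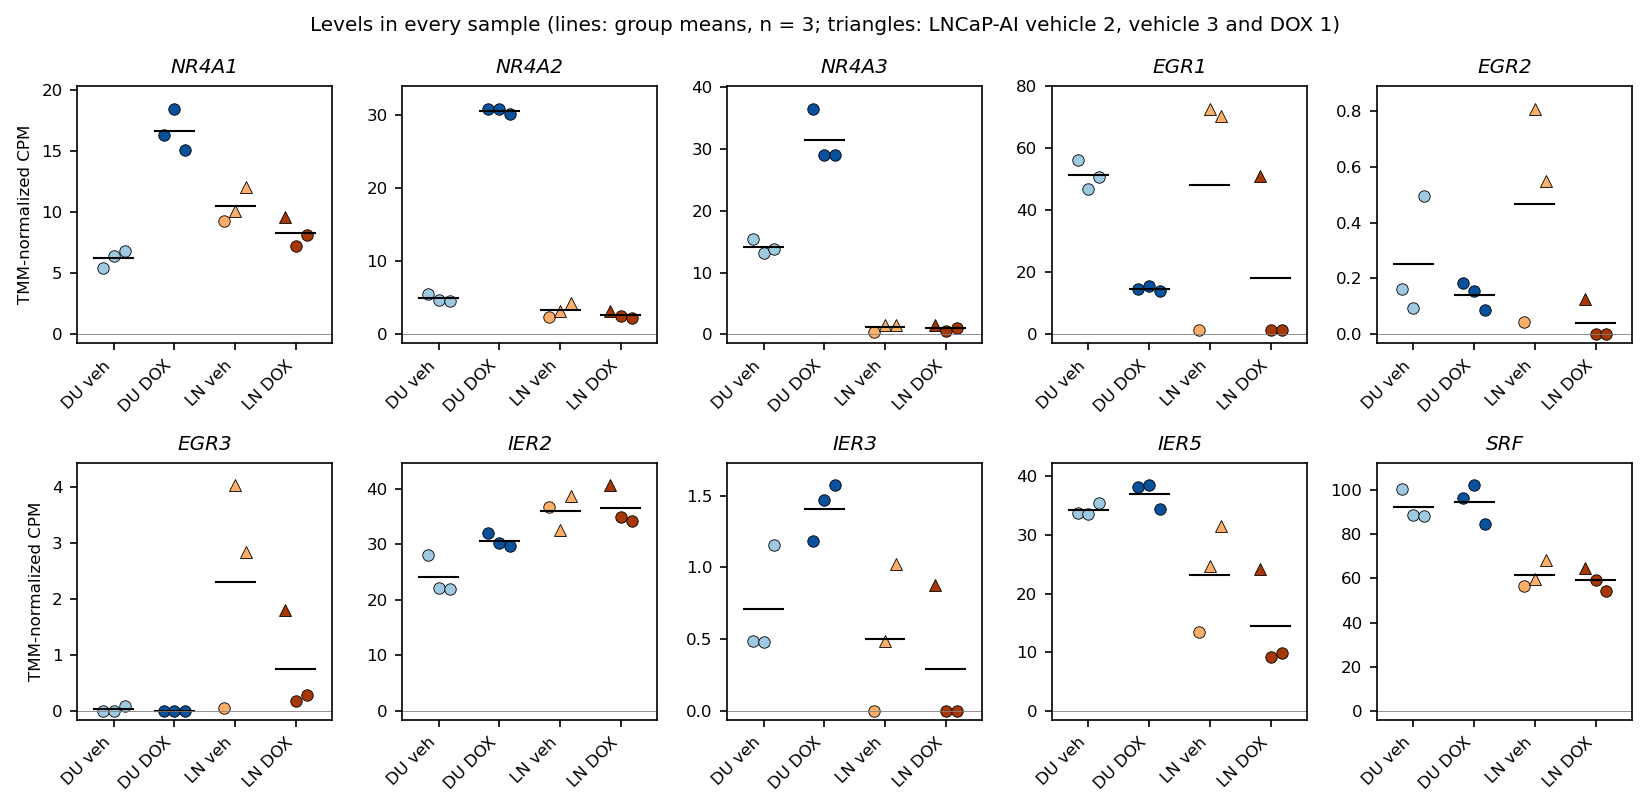
Level of each of the 10 genes in every library. The vertical axis is TMM-normalized CPM, each point is 1 sample, horizontal lines are group means (n = 3), and triangles are LNCaP-AI vehicle 2, vehicle 3 and DOX 1. In DU-145, NR4A1, NR4A2 and NR4A3 are higher and EGR1 is lower in every DOX sample, and in LNCaP-AI the triangles lie above the circles for EGR1, EGR3 and IER5 in both treatments.

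Counted over the list in DU-145, 8 of the 10 genes passed the count minimum, 5 were called higher and 1 lower by edgeR's quasi-likelihood test at a Benjamini-Hochberg adjusted p under 0.05, and 2 were not called. Of all 13644 genes tested, 26.3% were called higher and 25.3% lower. The groups did not overlap for 6 of the 8, beside 56.5% of all genes. The list was chosen on this contrast, so nothing is read from these counts. IER3 was not called by DESeq2, which called 4 higher and 1 lower, and it lost its call in 5 of the 6 fits that left out a library, all but the fit without vehicle 3. A single fit of all 12 libraries called 4 higher and 0 lower, without EGR1 and IER3. In DU-145 the stress gene HSPA1A also differed between the groups (log2 fold change 1.05, adjusted p = 0.000385, edgeR), as did DNAJB1 (0.25, adjusted p = 0.00391), while HSPH1, HSPA8 and HSP90AA1 did not pass the test and the summed heat shock list ranged from 7921 to 8587 CPM with vehicle and from 7104 to 8090 CPM with DOX. The 4 epithelial markers summed to 832 to 888 CPM with vehicle and 1884 to 1958 CPM with DOX. Their part in the levels of the 10 genes was not tested.

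Ordered by CPM per kb of the main transcript, a scale on which genes of unlike length can be compared, the vehicle samples of DU-145 ran from SRF (21.8 ± 1.67, SD, n = 3) through EGR1 (16.3 ± 1.49), IER2 (11.4 ± 1.61), IER5 (8.15 ± 0.237), NR4A3 (2.53 ± 0.208), NR4A1 (2.51 ± 0.281) and NR4A2 (1.43 ± 0.151) to IER3 (0.572 ± 0.313), with EGR2 and EGR3 last. All neighbours in this order had separate ranges apart from NR4A3 and NR4A1. With DOX, EGR1 moved from the second to the seventh place (4.70 ± 0.257 CPM per kb), below NR4A2 (8.80 ± 0.114), NR4A1 (6.70 ± 0.688) and NR4A3 (5.63 ± 0.776). IER5 and NR4A2 overlapped there, as did NR4A1 and NR4A3.

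**Figure D2:**
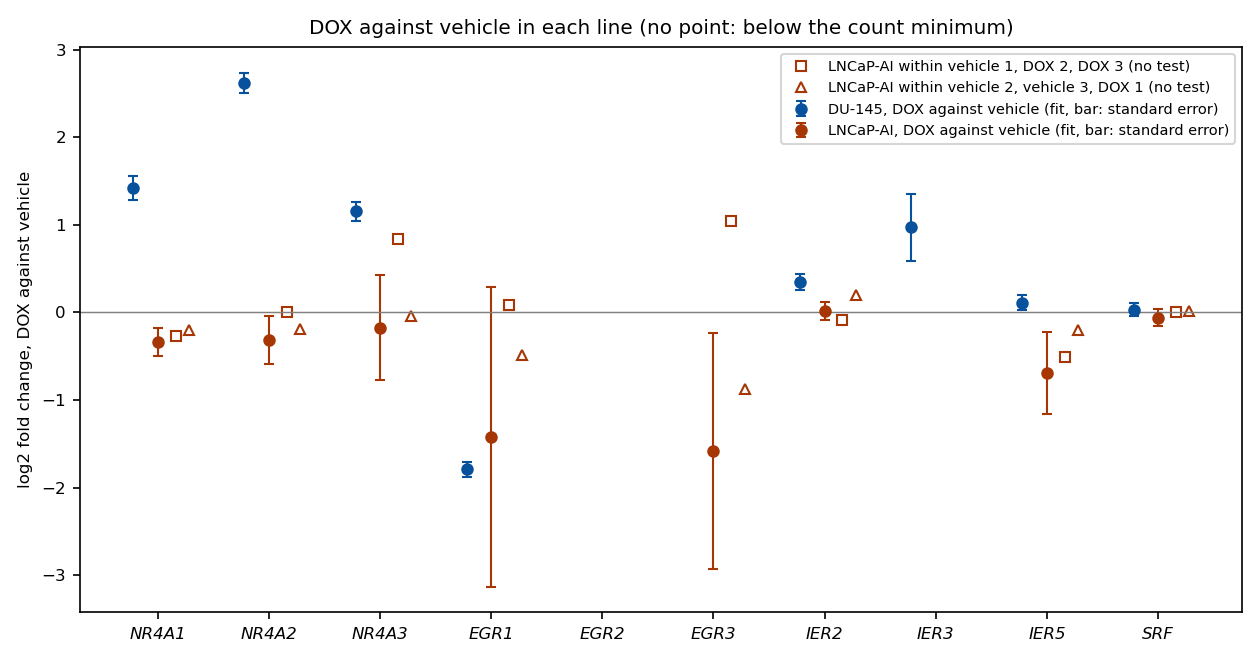
DOX against vehicle for each gene. The vertical axis is the log2 fold change, filled points with bars are edgeR fits with standard errors (blue, DU-145; brown, LNCaP-AI), and open symbols are LNCaP-AI values within each side of the division, with no test. NR4A2 at 2.62 and EGR1 at -1.79 stand at the ends for DU-145, and the LNCaP-AI bars of EGR1 (SE 1.71) and EGR3 (SE 1.35) cover most of the plot.

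In LNCaP-AI no member parted the treatments on this scale, and the libraries differed along the division instead. EGR1 had 1.42, 72.7 and 70.4 CPM in vehicle 1, 2 and 3 and 51.0, 1.499 and 1.54 CPM in DOX 1, 2 and 3. The low samples were vehicle 1, DOX 2 and DOX 3, and the mean of the other 3 was 43.5 times theirs. The log2 fold change for DOX was -1.42 (SE 1.71), and without DOX 1 it was -4.97. Within vehicle 1, DOX 2 and DOX 3 it was 0.08, and within vehicle 2, vehicle 3 and DOX 1 it was -0.49.

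EGR3 showed the same division, with 1, 75 and 78 counts in the vehicle and 43, 3 and 5 counts in the DOX samples. The ratio between the sides was 17.3, and the log2 fold change for DOX was -1.58 (SE 1.35). Within vehicle 1, DOX 2 and DOX 3, where vehicle had 1 count and the value depends on the prior count, the log2 difference was 1.04, and within the other side it was -0.87. An unnamed noncoding gene that overlaps EGR3 (ENSG00000253125) had 12 to 18 counts with vehicle and 4 to 6 with DOX. EGR3 had at most 1 count in any DU-145 library. CD44, CAV1, KRT5, KRT7 and EGFR of the DU-145 marker list were higher in vehicle 2, vehicle 3 and DOX 1 of LNCaP-AI than in its other libraries. The source of the division was not tested. EGR2 had 1, 15 and 15 counts with vehicle and 3, 0 and 0 with DOX, and IER3 had 0, 9 and 28 against 21, 0 and 0. Both were at or near 0 in vehicle 1, DOX 2 and DOX 3 and missed the count minimum, so no fold change was computed.

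IER5 had 13.5, 24.7 and 31.5 CPM in the vehicle samples and 24.2, 9.17 and 9.79 CPM in the DOX samples. Its 3 lower values were again those of vehicle 1, DOX 2 and DOX 3, with a ratio of 2.48 between the sides and a log2 fold change for DOX of -0.69 (SE 0.469). Without DOX 1 it was -1.27, and within the sides it was -0.51 and -0.20. NR4A3 was low throughout, with 8, 29 and 42 counts with vehicle and 36, 10 and 17 with DOX, a side ratio of 2.41 and a log2 fold change of -0.18 (SE 0.601). Within vehicle 1, DOX 2 and DOX 3 the log2 difference was 0.83, and within the other side it was -0.04. STX17-DT, which overlaps it on the opposite strand, had 7 to 23 counts with vehicle and 19 to 31 with DOX in this line. These are of the same order as the counts of NR4A3, and the strand setting is not given, so NR4A3 is uncertain here.

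NR4A1 had 9.33, 10.1 and 12.05 CPM with vehicle and 9.58, 7.27 and 8.14 CPM with DOX. The log2 fold change was -0.34 (SE 0.160), with -0.27 within vehicle 1, DOX 2 and DOX 3 and -0.20 within the other side. DOX 1 lay above vehicle 1 on this scale, whereas on CPM of the raw totals the groups did not overlap. NR4A2 had 2.34, 3.18 and 4.31 CPM against 3.22, 2.54 and 2.16 CPM, a log2 fold change of -0.31 (SE 0.273), with -0.000715 within vehicle 1, DOX 2 and DOX 3, -0.19 within the other side and a side ratio of 1.52. SRF had 56.7, 59.7 and 68.4 CPM against 64.6, 59.5 and 54.1 CPM, with a log2 fold change of -0.06 (SE 0.0996), within-side values of 0.000208 and 0.02 and a side ratio of 1.13. IER2 had 36.8, 32.7 and 38.7 CPM against 40.7, 35.0 and 34.2 CPM, a log2 fold change of 0.02 (SE 0.101) with -0.09 and 0.19 within the sides, and was the one member whose sides overlapped.

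Of the 10 genes, 8 passed the count minimum in LNCaP-AI and 0 were called by edgeR, 0 had an unadjusted p under 0.05 and 0 were called by DESeq2. Among all 16030 genes tested 7.22% were called higher and 5.52% lower. The treatments did not overlap for 0 of the 10 members and for 37.9% of the genes tested. Between the sides of the division, 7 of the 8 did not overlap and were higher in vehicle 2, vehicle 3 and DOX 1, beside 21.8% of all genes higher and 12.7% lower there. The sides were drawn from the same counts, and EGR3 passed the count minimum only through vehicle 2, vehicle 3 and DOX 1. These counts are therefore a description. Vehicle and DOX samples fell unevenly on the sides but both occurred on each. The within-side values compare them there, with 1 sample of 1 treatment a side and no test. Scores on the component still differed by treatment within a side. Vehicle 1 had 66.4 against 85.1 and 85.3 for DOX 2 and DOX 3. DOX 1 had -65.7 against -84.7 and -86.4 for vehicle 2 and vehicle 3. Within a side, treatment and degree of the division therefore cannot be told apart. The AP-1 gene FOS was divided in the same way, with 3, 205 and 268 counts in the vehicle and 166, 3 and 2 counts in the DOX samples.

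**Figure D3:**
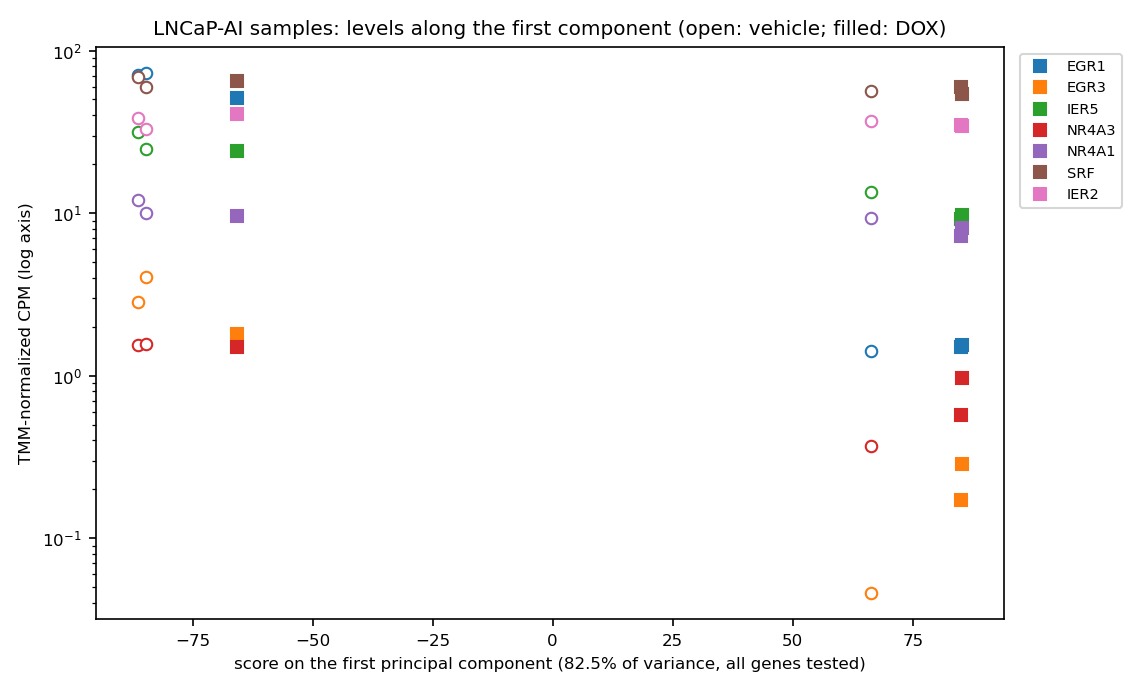
LNCaP-AI libraries along the first principal component. The horizontal axis is the score on that component (82.5% of the variance) and the vertical axis is TMM-normalized CPM on a log scale, with open symbols for vehicle and filled symbols for DOX samples. EGR1 and EGR3 fall steeply from the 3 samples at left (vehicle 2, vehicle 3 and DOX 1) to the 3 at right, IER5 and NR4A3 less so, and SRF, NR4A1 and IER2 lie nearly level.

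The difference between the lines before MUC1 silencing was tested on the vehicle samples, 3 of DU-145 against 3 of LNCaP-AI. These libraries also serve as references in the DOX comparisons above, and each line is 1 line, so the test covers the spread between these samples. NR4A3 was higher in DU-145, at 14.2 ± 1.17 against 1.15 ± 0.681 CPM (SD, n = 3), with a log2 fold change of 3.72 (SE 0.452, adjusted p = 0.000329, edgeR). SRF was higher in DU-145 as well, at 92.4 ± 7.06 against 61.6 ± 6.04 CPM, with a log2 fold change of 0.70 (SE 0.0984, adjusted p = 0.000653). Both kept an adjusted p under 0.05 when any 1 library was left out, with a highest value of 0.00302 for NR4A3 and 0.00584 for SRF. The LNCaP-AI vehicle counts of NR4A3 (8, 29 and 42) stand beside 7 to 23 counts of the overlapping STX17-DT, so its level there is uncertain.

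NR4A1 was lower in DU-145, at 6.24 ± 0.699 against 10.5 ± 1.403 CPM, with a log2 fold change of -0.63 (SE 0.179, adjusted p = 0.0170, edgeR). IER2 was also lower there, at 24.1 ± 3.41 against 36.1 ± 3.05 CPM, with a log2 fold change of -0.47 (SE 0.119, adjusted p = 0.0107). NR4A2 was higher, at 4.95 ± 0.525 against 3.28 ± 0.985 CPM, with a log2 fold change of 0.71 (SE 0.253, adjusted p = 0.0408). The call of NR4A1 was lost without DU-145 vehicle 1 (adjusted p = 0.0835) and that of IER2 without DU-145 vehicle 2 (0.0559) or vehicle 3 (0.0625). The call of NR4A2 was lost in 5 of the 6 fits that left out a library, with a highest adjusted p of 0.129, and was kept only without LNCaP-AI vehicle 3 (0.0246). The NR4A genes thus did not share a direction between the lines, since NR4A1 was lower and NR4A2 and NR4A3 were higher in DU-145.

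EGR1 did not pass the test between the lines (log2 fold change 0.20, SE 0.985, adjusted p = 0.868, edgeR). The DU-145 values of 46.8 to 56.0 CPM lay between LNCaP-AI vehicle 1 at 1.42 CPM and vehicle 2 and 3 at 72.7 and 70.4 CPM. Without LNCaP-AI vehicle 1 the log2 fold change was -0.44 with an adjusted p of 0.000327. IER5 missed the threshold (log2 fold change 0.68, SE 0.274, adjusted p = 0.0616), although all DU-145 samples were higher, at 33.6 to 35.4 against 13.5 to 31.5 CPM. EGR2, EGR3 and IER3 did not reach the count minimum. EGR3 had 0 to 1 counts in DU-145 and 1, 75 and 78 in LNCaP-AI. In all, 7 members were tested, 3 were called higher and 2 lower, beside 30.2% and 35% of 15628 genes, and 6 of the 7 did not overlap, beside 73% of all genes.

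**Figure D4:**
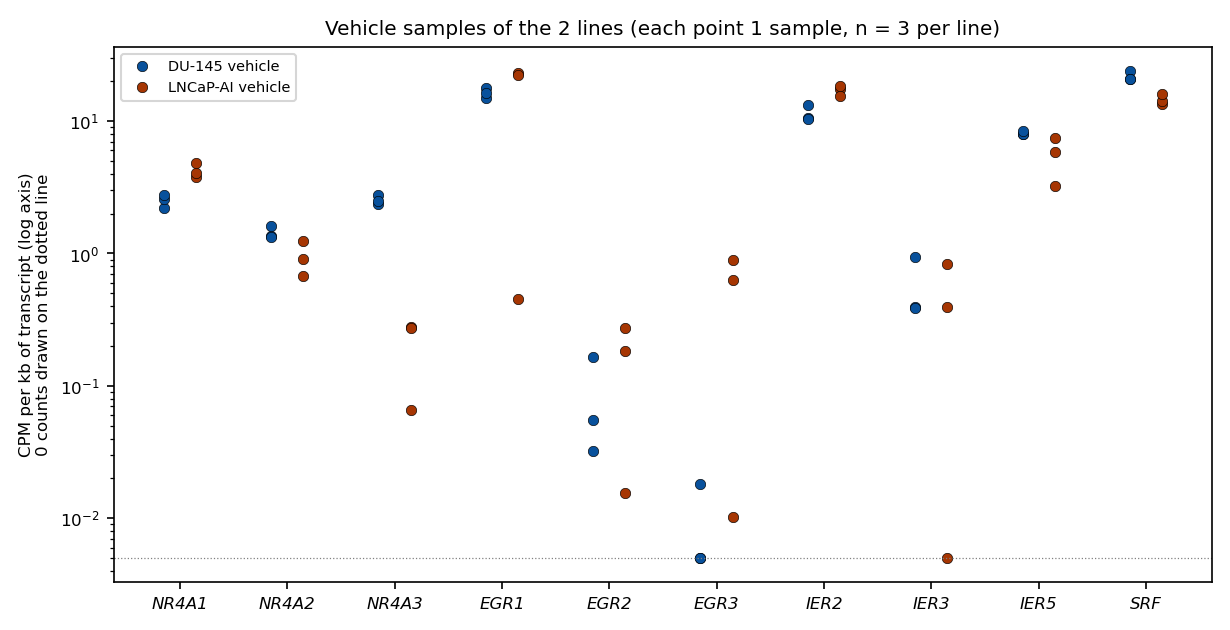
Vehicle samples of both lines. The vertical axis is CPM per kb of the main transcript on a log scale, each point is 1 sample (n = 3 per line, blue for DU-145 and brown for LNCaP-AI), and samples with 0 counts are drawn on the dotted line. NR4A3 is separated most widely among the tested genes, with a log2 fold change of 3.72, and LNCaP-AI vehicle 1 lies far below the other LNCaP-AI samples for EGR1 and EGR3.

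On the per-kb scale the vehicle samples of LNCaP-AI ran from IER2 (17.1 ± 1.45, SD, n = 3), EGR1 (15.4 ± 12.9) and SRF (14.6 ± 1.43) through IER5 (5.53 ± 2.16), NR4A1 (4.22 ± 0.565) and NR4A2 (0.944 ± 0.284) to EGR3, IER3, NR4A3 and EGR2. Only SRF and IER5, and NR4A1 and NR4A2, were neighbours with separate ranges, whereas in DU-145 EGR1 ranked second without overlap. NR4A3 stood next after IER5 in DU-145 and next to last in LNCaP-AI.

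The rest of the pathway was taken from a list of 114 genes, which was also chosen with earlier results of these data known. Counts of calls among these genes are therefore descriptions. In DU-145, 103 were tested, 48 rose and 23 fell with DOX (46.6% and 22.3%, beside 26.3% and 25.3% of all genes), with a median log2 fold change of 0.20 beside 0.000552 over all genes. The 4 with the smallest adjusted p that rose were the ERK phosphatase gene DUSP5 (74.6 ± 2.67 to 312 ± 2.57 CPM, log2 fold change 2.07, SE 0.0697, adjusted p = 1.15e-13), the EGF receptor ligand gene HBEGF (1.70, SE 0.0781, adjusted p = 4.15e-12), the kinase gene SGK1 (2.02, SE 0.126, adjusted p = 2.24e-10) and PPP1R15A (1.38, SE 0.0886, adjusted p = 3.17e-10), which directs dephosphorylation of eIF2α. The 4 that fell were ID2, an inhibitor of helix-loop-helix factors (51.8 ± 6.06 to 15.7 ± 2.81 CPM, log2 fold change -1.73, SE 0.111, adjusted p = 3.17e-10), TPM1, a tropomyosin (-0.92, SE 0.0669, adjusted p = 1.62e-09), NAB1 (-0.91, SE 0.0997, adjusted p = 4.13e-07) and MRTFB (-0.70, SE 0.0801, adjusted p = 6.37e-07). All of these are edgeR's quasi-likelihood test over all genes.

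By role, the counts in this paragraph stand beside 26.3% of all genes called higher and 25.3% called lower in DU-145. The corepressors of EGR and partners of NR4A had 4 tested genes, of which 0 rose and 3 fell (0% and 75%). These were NAB1, NAB2 (33.1 ± 4.23 to 18.5 ± 1.22 CPM, log2 fold change -0.84, SE 0.0972, adjusted p = 8.02e-07, edgeR) and RXRA (-0.27, SE 0.0807, adjusted p = 0.00794), the latter a dimer partner of NR4A1 and NR4A2. Among 5 tested SRF partners, MRTFA and ELK3 rose, MRTFB and ELK4 fell, and ELK1 did not pass. The CREB arm had 2 genes that rose, 2 that fell and 5 that did not pass among 9 (22.2% and 22.2%, near the shares of all genes). The ERK arm had 7 genes that rose and 1 that fell among 14 (50% and 7.14%), with MAP2K1 at 0.67 (SE 0.0696, adjusted p = 2.03e-07) and MKNK2 at 1.05 (SE 0.0712, adjusted p = 6.88e-10). Among the cytoskeletal targets of SRF, 6 rose, 5 fell and 7 did not pass (33.3% higher and 27.8% lower, near the shares of all genes). Of the other immediate early genes, 31 rose, 9 fell and 12 did not pass (59.6% higher and 17.3% lower). IER5L, a relative of IER5, fell (-0.73, SE 0.180, adjusted p = 0.00219). The AP-1 gene FOSB had 1, 1 and 2 counts with vehicle and 38, 53 and 39 with DOX, whereas FOS overlapped between the groups, with 19, 24 and 42 against 24, 29 and 24 counts. In the fit of all 12 libraries 24 genes of the list rose and 8 fell, beside 4260 of 13644 genes called in either direction.

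**Figure D5:**
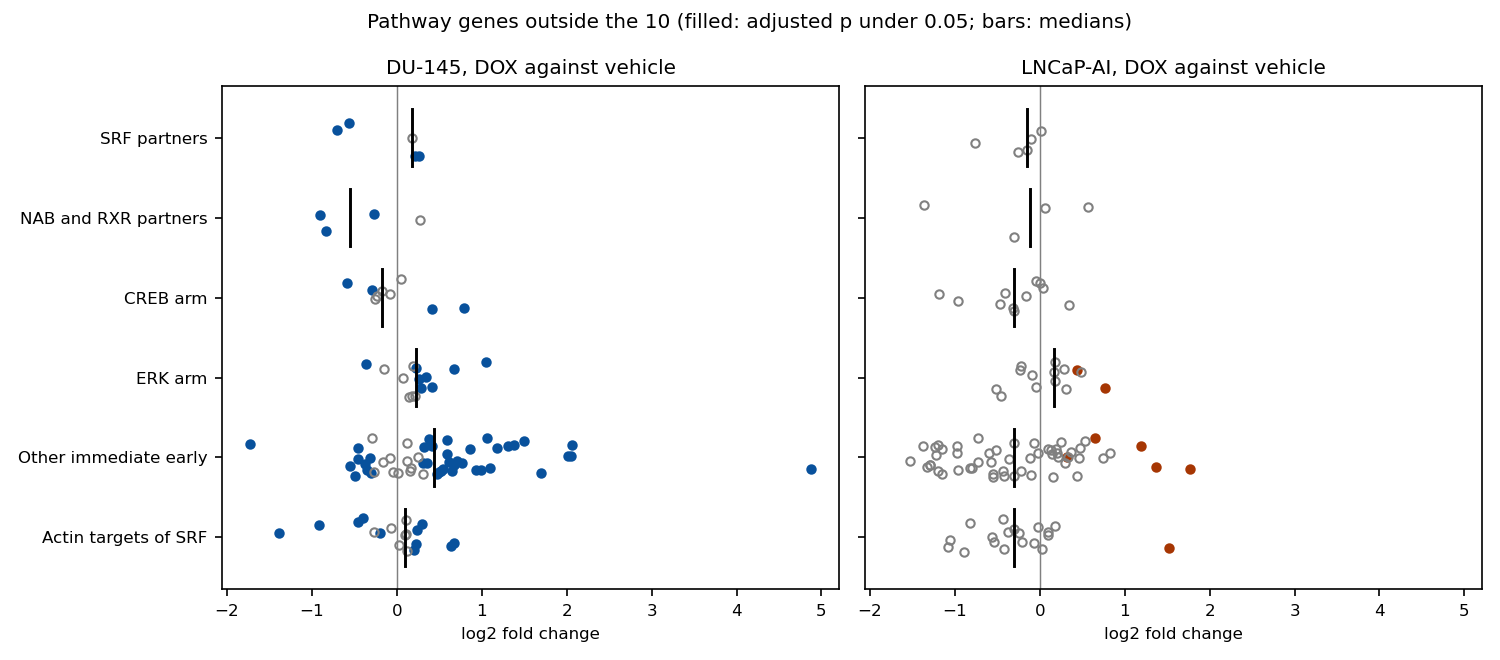
The pathway list outside the 10 genes. The horizontal axis is the log2 fold change for DOX against vehicle, each point is 1 gene, filled points passed an adjusted p under 0.05 in edgeR, black bars are medians, and vertical placement within a row is random. In DU-145 the immediate early genes include 31 that rose and 9 that fell (59.6% and 17.3%, beside 26.3% and 25.3% of all genes). FOSB lies at the far right from a vehicle level of 1 to 2 counts. In LNCaP-AI 8 genes in all are filled, each of them higher (7.34%, beside 7.22% of all genes).

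In LNCaP-AI, 109 genes of the list were tested, 8 rose and 0 fell (7.34% higher, beside 7.22% of all genes). By unadjusted p under 0.05, 18 genes were higher and 5 lower, and DESeq2 called 3 lower. The 4 with the smallest adjusted p were the antiproliferative gene BTG2 (36.7 ± 9.79 to 126 ± 14.2 CPM, SD, n = 3, log2 fold change 1.77, SE 0.216, adjusted p = 0.0125, edgeR), ATF3 (1.19, SE 0.162, adjusted p = 0.0144), a stress-induced AP-1 family member, the phosphatase gene DUSP2 (1.36, SE 0.204, adjusted p = 0.0164) and MKNK2 (0.76, SE 0.124, adjusted p = 0.0191). The others were ID2, ACTA2, RPS6KA2 and JUND. For each of the 8, every DOX sample lay above every vehicle sample, beside 37.9% of all genes not overlapping in either direction. They were therefore bound to be higher with DOX within each side of the division, and nothing is read from that. BTG2, for example, differed by 1.49 (log2) within vehicle 1, DOX 2 and DOX 3 and by 1.81 within the other side. Without DOX 2, or without DOX 3, 0 of the list were called. Between the sides, 61 of the 109 were higher in vehicle 2, vehicle 3 and DOX 1 and 8 were lower without overlap (56% and 7.34%, beside 21.8% and 12.7% of all genes). These sides come from the same counts, so the shares are a description. A gene high only in vehicle 2, vehicle 3 and DOX 1 passed the count minimum through those samples, as F3 and CXCL1 did.

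Between the vehicle samples of the lines, 107 genes of the list were tested, 49 were higher and 25 lower in DU-145 (45.8% and 23.4%, beside 30.2% and 35% of all genes). The cytoskeletal targets of SRF had 15 higher and 1 lower among 19 (78.9% and 5.26%), with a median log2 fold change of 1.32. Within LNCaP-AI, 12 of 19 were higher and 1 lower in vehicle 2, vehicle 3 and DOX 1 without overlap. These are 63.2% and 5.26%, beside 21.8% and 12.7% of all genes. The LNCaP-AI vehicle group used here holds samples of both sides of that division. HBEGF (log2 fold change 3.41, SE 0.117, adjusted p = 3.06e-06, edgeR), DUSP1 (3.02, SE 0.117, adjusted p = 4.15e-06), LIF (2.99, SE 0.133, adjusted p = 6.44e-06) and ID2 (2.18, SE 0.112, adjusted p = 9.82e-06) led the genes higher in DU-145. BTG1 (-2.41, SE 0.122, adjusted p = 9.50e-06), MYC (-1.50, SE 0.0889, adjusted p = 1.65e-05) and the circadian gene PER2 (-4.48, SE 0.314, adjusted p = 3.07e-05) were among the 4 that led those lower. The fourth, DUSP2, was at 25.5 ± 6.27 CPM in LNCaP-AI and 0.0908 ± 0.0957 CPM in DU-145, which is at the floor of detection. NAB1 and NAB2 were both higher in DU-145, by 1.74 (SE 0.238, adjusted p = 0.000586) and 1.49 (SE 0.219, adjusted p = 0.000814), while EGR1 itself did not pass the test.

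Genes with the most similar pattern were ranked by Pearson's r of log2 CPM over the 12 samples, each value centred on its line, among 12910 genes. The anchor of each family was its member with the highest mean log2 CPM over these samples, which for the NR4A family was NR4A1, although NR4A3 had the higher CPM in both DU-145 groups. For NR4A1 the most similar were VEGFA (r = 0.982), RUBCN (0.976) and WDFY2 (0.975). For EGR1 they were PSTPIP2 (0.999), TSPAN18 (0.997) and DLX4 (0.994). For IER2 they were PES1 (0.957), SLC41A1 (0.945) and CHMP4B (0.934), and for SRF they were TBL3 (0.904), CDC42BPA (0.892) and POLG (0.879). The 12 points share libraries and depth, and those of EGR1 include the 43.5-fold ratio between the sides of the LNCaP-AI division. Those of NR4A1 include the DU-145 step from 5.47 to 6.85 CPM with vehicle to 15.1 to 18.5 CPM with DOX. In that contrast 7033 of 13644 genes were called in either direction.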

How the data were processed

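RNA-seq counts per gene were deposited by the authors for 12 samples, as raw counts without normalization. Libraries were TruSeq stranded mRNA. The submitters' processing notes name CASAVA 1.8.2, STAR 2.7.0, DESeq2 1.24.0 and build GRCh38.p7. The counting tool and its strand setting are not given in the sources used here. Of the 58037 identifiers, 56993 had a symbol. Gene positions and main transcripts are from GENCODE on GRCh38, whose release may differ from that of the authors.

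A gene entered a comparison when 3 or more of its 6 samples had 10 counts or more, and was fitted with edgeR 4.0.16 (TMM, glmQLFit, glmQLFTest, Benjamini-Hochberg adjustment over all genes tested) in R 4.3.3. Replicates were kept separate, since no pair agreed within sampling noise. The steps were tested on simulated data. Alternatives were DESeq2 1.42.0, its size factors in edgeR, no filter, all 12 samples in 1 fit, the replicate number as a block, and leaving out each sample. DOX-treated control-shRNA cells and the authors' own tests were not used.

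The members, lists and tests were chosen with earlier results of these data known. Named are all 10 members, MUC1, per comparison and direction the 4 list genes of lowest adjusted p, and the 3 genes most like the member of each family with the highest mean log2 CPM. FOS, FOSB and MAP2K1, MKNK2 in DU-145, IER5L, NAB1 and NAB2 between the lines, ID2, ACTA2, RPS6KA2 and JUND in LNCaP-AI, and the genes overlapping a member were named after their values were seen.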

Additional observations from a re-analysis of the deposited data

Results flagged for a closer look

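BTG2 and ID2 lay on opposite sides of vehicle in the lines, with every DOX sample above every vehicle sample in LNCaP-AI and every DOX sample below every vehicle sample in DU-145, beside 37.9% and 56.5% of the genes tested whose groups did not overlap in these lines. The log2 fold change of BTG2 was 1.77 in LNCaP-AI and -0.269 in DU-145, where it did not pass the test (adjusted p = 0.116, edgeR). That of ID2 was 0.648 in LNCaP-AI and -1.73 in DU-145. The difference between the lines was not tested.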

How the results depend on the processing

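In LNCaP-AI, 1158 genes were called higher and 885 lower. These counts were 1897 and 1620 with DESeq2 and 2312 and 1688 in 1 fit of all 12 samples, and ranged from 1 to 1933 and from 0 to 1605 when single libraries were left out, with 1 gene called in all without DOX 2 or without DOX 3. Of the pathway list, 8 genes were called higher and 0 lower. The higher count was 5 without a filter and 19 in the fit of all samples, and 0 to 12 when libraries were left out. The lower count was 3 with DESeq2, 2 in the fit of all samples and 0 to 7 when libraries were left out. In DU-145, 3583 genes higher became 2092 and 3450 lower became 2168 in the fit of all samples, and the pathway list went from 48 to 24 higher and from 23 to 8 lower. That fit shares its estimate of the spread with LNCaP-AI. The other causes were not tested.

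Replicate numbers did not pair the samples. Same-numbered vehicle and DOX samples had correlated deviations of -0.94, -0.81 and -0.84 in LNCaP-AI and of 0.127, -0.0912 and 0.0763 in DU-145, and not every sample correlated best with its own number. With the replicate block, 0 genes were called higher and 0 lower in LNCaP-AI (2909 at an unadjusted p under 0.05), with 0 of the pathway list higher, beside 6924 in DU-145 and 9378 between the lines, where NR4A2 was then not called (adjusted p = 0.0702) and IER5 was (adjusted p = 0.0399, edgeR).

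Between the lines, the log2 fold change of EGR1 turned from 0.20 to -0.44 without LNCaP-AI vehicle 1, and was 0.57 without vehicle 2. Without a filter the median of all genes moved from -0.06 to -0.43, NR4A2 was not called (adjusted p = 0.166) and EGR3 was. IER5 was called with DESeq2 (adjusted p = 0.0168).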
